A study of Nannochloropsis oceanica with 6 samples.

Results

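The genes described here are the 125 of 10569 Nannochloropsis oceanica genes whose KEGG pathway annotation in the deposited tables includes the spliceosome and does not include protein processing in the endoplasmic reticulum. The second condition left out 6 of the 131 genes annotated to the spliceosome, which all carry an Hsp70 chaperone entry that both pathways list. The rule used annotation only and no measured value. The 125 genes belong to 94 KEGG orthology entries of the spliceosome, and 21 of these entries are held by more than 1 gene (52 genes together). Genes of the spliceosome were found on 28 numbered chromosomes, taken from the number in the gene identifier.

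The spliceosome removes introns from pre-mRNA. It is rebuilt on each intron from small nuclear ribonucleoproteins (snRNPs), which are small nuclear RNAs dressed with Sm or LSm protein rings and with proteins of their own. In yeast and human cells, U1 and U2 first mark the 5′ splice site and the branch site, the U4/U6.U5 tri-snRNP then joins, RNA helicases rearrange the RNAs, and the Prp19 complex stabilises the active form in which the cuts and the joining take place. SR and hnRNP proteins steer the choice of splice sites, and the exon junction, TREX and cap-binding complexes tie splicing to the export of the finished mRNA. The roles given below are known from yeast, human or plant proteins, and the deposited annotation links the algal genes to them by orthology.

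Nitrogen deprivation (ND) was studied in strain IMET1, an oil-storing marine microalga. The N2 and N1 cells had been washed and kept without nitrogen for 2 days and 1 day under continuous light (photon flux 50 µmol m-2 s-1). The C0 cells were sampled on day 0, in logarithmic growth with nitrogen, under brighter continuous light (photon flux 80 µmol m-2 s-1). Each group had 2 libraries, and no cells kept with nitrogen were sequenced on day 1 or day 2. The lack of nitrogen, the washing, the lower light and the longer time in culture therefore cannot be told apart. All 3 groups share the strain, and in bulk RNA a lower level in some cells and a lower level in every cell cannot be told apart.

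Library totals lay between 4875888 and 6523021 estimated counts, and spliceosome genes took between 1.18% and 1.46% of them. Their median level was 74.0 to 86.9 TPM (a share of the library's transcripts, scaled by length) in the 6 libraries, against 41.3 to 46.0 TPM over all genes. Values for single genes are given below as CPM (counts scaled to a common library size), set by library total and TMM factor, for replicate 1 and then replicate 2. A log2 fold change is followed by its approximate standard error (SE), and a gene is called higher or lower when its adjusted p from edgeR's quasi-likelihood test, with Benjamini-Hochberg adjustment over all 9736 genes tested, was below 0.05. Of the 125 genes, 123 passed the filter of 1 CPM in 2 libraries. The other 2 were a second gene for SmB (NO22G01150), at 2.61 counts in N1 replicate 2 and 0 in the other libraries, and a second gene for Prp40 (NO01G05190), at 1 count in N2 replicate 1 and 0 in the others, both under a floor of 3 counts.

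After 1 day of ND, 81 of the 123 spliceosome genes were called (background over all genes 70.4%), 29 of them higher and 52 lower. Over all genes tested 33.3% were called higher and 37.1% lower, so that 23.6% of the spliceosome genes stand against 33.3% and 42.3% against 37.1%. Their median log2 fold change was −0.18, against −0.04 over all genes. After 2 days 77 were called (background 69.9%), 18 higher and 59 lower than in C0, with a background of 35.0% higher and 34.9% lower. That is 14.6% and 48.0% of the spliceosome genes, with a median log2 fold change of −0.17 against 0.01 over all genes. Between N2 and N1, 53 were called (background 57.9%), 15 of them higher (background 29.4%) and 38 lower (background 28.5%), with a median of −0.08 against 0.00. This last split depends on the scaling. With library totals alone in place of TMM factors 24 genes were higher and 25 lower in N2 than in N1, and the share of calls that were higher went to 49.0% in place of 28.3% among spliceosome genes and to 61.1% in place of 50.8% over all genes. All 3 comparisons share libraries in pairs, and so they are not independent of each other.

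Most of these changes were small. Calls with a change of at least 2-fold numbered 9 of 123 in N1 against C0 (7.32%, background 28.2%), 11 in N2 against C0 (8.94%, background 24.8%) and 4 in N2 against N1 (3.25%, background 12.4%), of which 2 were higher (background 8.70%) and 2 lower (background 3.66%). The median absolute log2 fold change was 0.39 in N1 against C0, where that over all genes was 0.61. In N2 against C0 it was 0.43 against 0.54 over all genes. The median SE of a spliceosome gene was 0.09 in each comparison, so that changes of this size could still be called. Spliceosome genes had a median of 67.5 CPM, against 48.0 CPM over all genes tested.

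**Figure D1:**
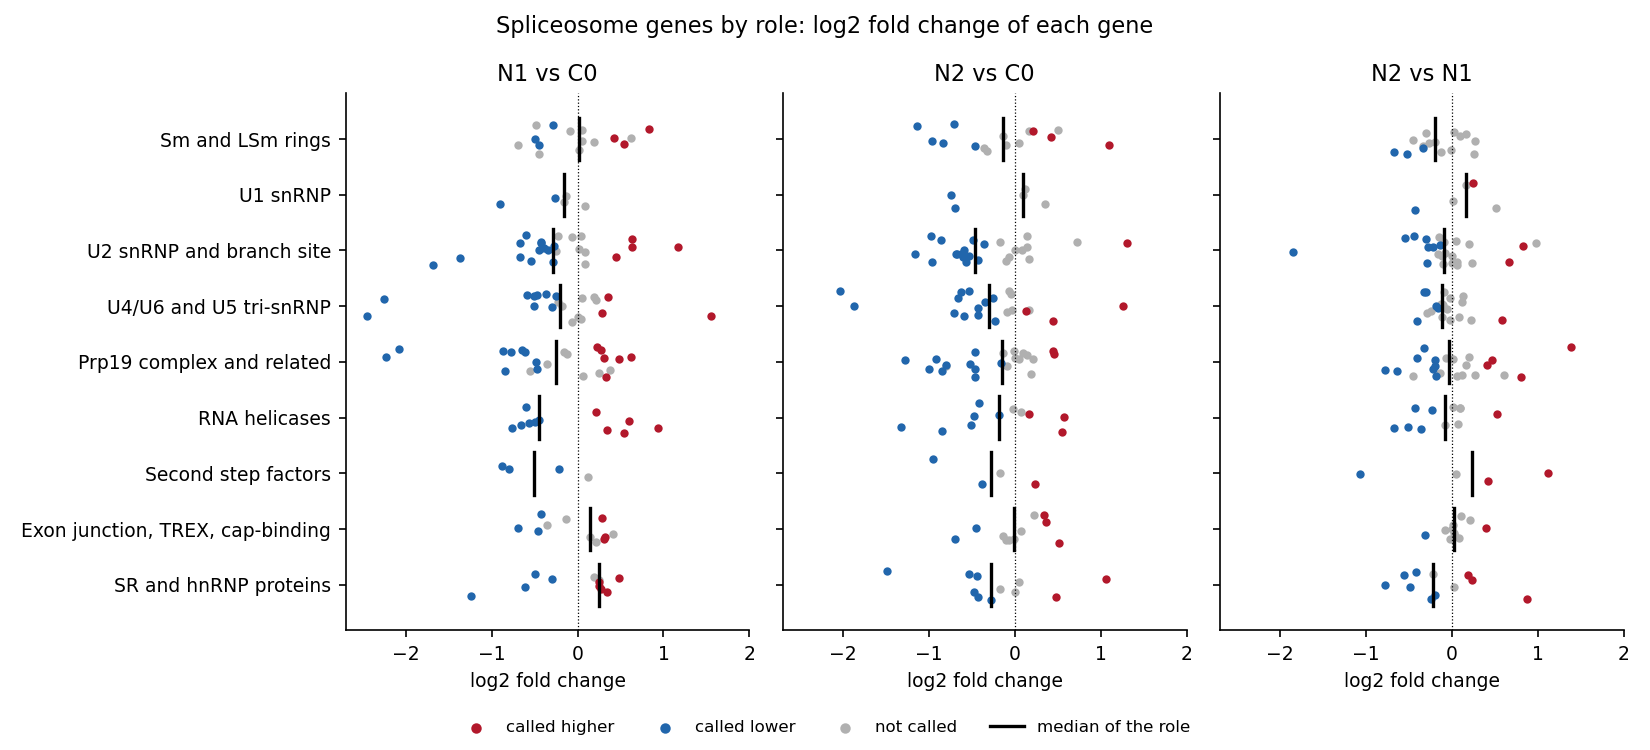
Log2 fold change (x axis) of each tested spliceosome gene (points, 123 genes) by role (y axis, points spread vertically for visibility) in N1 against C0, N2 against C0 and N2 against N1. Red points were called higher, blue points lower and grey points were not called at an adjusted p of 0.05, and the black bar is the median of the role. Most points lie between −1 and 1, and the 4 genes below −2 in N1 against C0 belong to the tri-snRNP and the Prp19 group.

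**Figure D2:**
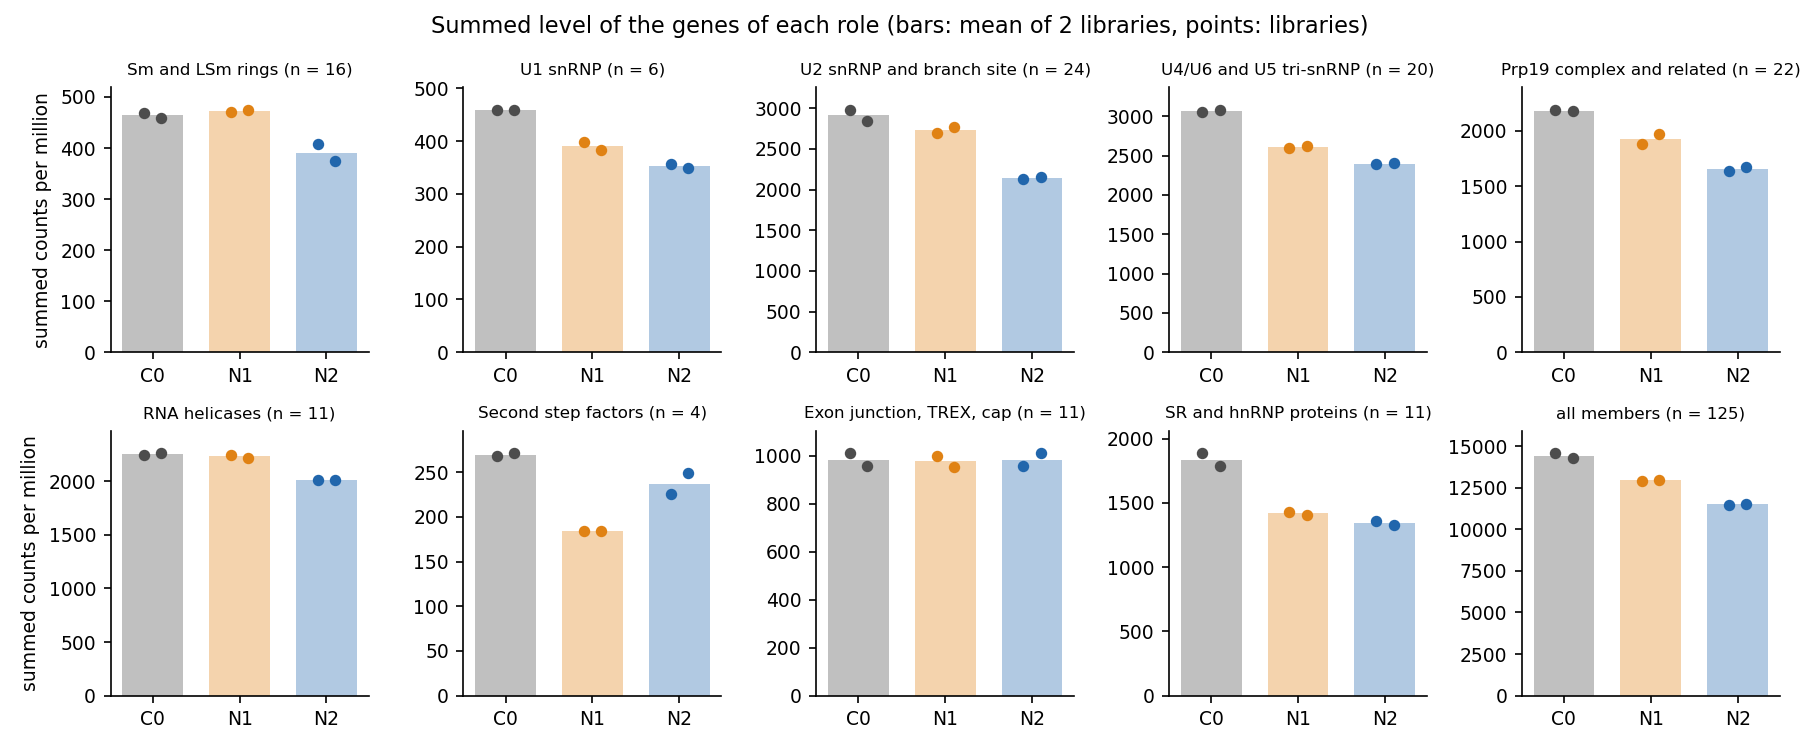
Summed CPM of the genes of each role in C0, N1 and N2 (bars are means of 2 libraries starting at 0, points are the libraries), with all 125 genes in the last panel. The sum over all 125 genes was highest in C0 and lowest in N2, while the exon junction, TREX and cap-binding genes stayed between 952 and 1010 CPM and the second step genes were lowest in N1.

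Summed over all 125 genes, the level was 14566 and 14302 CPM in C0, 12900 and 12980 CPM in N1, and 11479 and 11549 CPM in N2. No library of one group reached the range of another. The tri-snRNP genes summed to 3059 and 3082 CPM in C0, 2595 and 2619 CPM in N1 and 2389 and 2402 CPM in N2. The SR and hnRNP genes summed to 1887 and 1787 CPM in C0, 1433 and 1407 CPM in N1 and 1360 and 1326 CPM in N2. Of these, 2 abundant glycine-rich genes described below (NO08G00740 and NO14G00370) had means of 462 and 603 CPM in C0 and 195 and 394 CPM in N1. Their fall in N1 was larger than that of the sum, so the other SR and hnRNP genes together did not fall in N1. The exon junction, TREX and cap-binding genes summed to between 952 and 1010 CPM in all 6 libraries, and their groups overlapped. These sums are dominated by abundant genes and carry no test.

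The Sm and LSm rings, which form the core of the snRNPs, had 15 tested genes. Of these 3 were called higher (background 33.3%) and 3 lower (background 37.1%) in N1 against C0. In N2 against C0, 3 were higher (background 35.0%) and 5 lower (background 34.9%). LSM6 (NO05G01730), a subunit of the ring on U6 RNA and on decapping complexes, had 102 and 104 CPM in C0, 81.9 and 87.0 CPM in N1 and 53.0 and 52.6 CPM in N2. The groups did not overlap, and its log2 fold change was −0.96 ± 0.08 in N2 against C0 (adjusted p = 3.2e-08) and −0.29 ± 0.07 in N1 against C0 (adjusted p = 0.0030). LSM2 (NO10G01990), another subunit of that ring, was called higher at low counts, with 3.77 and 4.98 CPM in C0, 9.12 and 6.39 CPM in N1 and 10.3 and 8.40 CPM in N2. Its log2 fold change was 1.09 ± 0.30 in N2 against C0 (adjusted p = 0.0048). In N1 it was 0.83 ± 0.32 (adjusted p = 0.032), and that call was lost without C0 replicate 1 (0.64, adjusted p = 0.17), and also without N1 replicate 1 (0.54, adjusted p = 0.25). LSM3, LSM4, LSM5, LSM7 and LSM8 had no more than 1 call each among N1 and N2 against C0, and 4 of the 7 LSm genes were called in neither direction in N1.

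Among the Sm proteins, SmD1 (NO25G01160) was higher in N1, at 96.5 and 99.5 CPM, than in C0, at 69.5 and 65.3 CPM, with 82.3 and 73.2 CPM in N2. The log2 fold change was 0.54 ± 0.08 in N1 against C0 (adjusted p = 4.3e-05) and 0.21 ± 0.08 in N2 against C0 (adjusted p = 0.038). The N2 call was lost without C0 replicate 1 (0.25, adjusted p = 0.056), C0 replicate 2 (0.16, adjusted p = 0.20) or N2 replicate 1 (0.12, adjusted p = 0.28). SmB (NO07G02430) was not called in N1, at 79.1 and 72.9 CPM, against C0, at 74.0 and 72.6 CPM. It was lower in N2, at 52.7 and 53.5 CPM (log2 fold change −0.46 ± 0.08 against C0, adjusted p = 0.00016). The SmF gene (NO05G03110) lay between 68.2 and 75.2 CPM in all libraries, with overlapping groups and no call. SmG (NO17G00600) and SmE (NO29G01030) had 2 of the 3 highest mean TPM values of all spliceosome genes, 872 and 638 TPM, on only 7.29 and 12.8 CPM. Their effective lengths, the number of positions a fragment could start at, were 13.3 and 31.4 bases, and 8 short genes with an effective length under 100 bases share this, so their TPM values are uncertain. SmG was called lower in N2 against C0 (−0.71 ± 0.29, adjusted p = 0.042), and the call was lost without N2 replicate 2 (−0.49, adjusted p = 0.22), C0 replicate 1 (−0.83, adjusted p = 0.060) or C0 replicate 2 (−0.58, adjusted p = 0.19).

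The U1 snRNP, which pairs with the 5′ splice site, had 5 tested genes, of which none was called higher and 2 were called lower in N1 and in N2 against C0. The background was 33.3% higher and 37.1% lower in N1, and 35.0% and 34.9% in N2. U1-70K (NO21G01330), the protein through which SR proteins contact U1, had 36.3 and 43.6 CPM in C0, 24.2 and 18.5 CPM in N1 and 26.9 and 20.9 CPM in N2. All 4 ND libraries lay below both C0 libraries, with a log2 fold change of −0.90 ± 0.17 in N1 (adjusted p = 0.00025) and −0.74 ± 0.16 in N2 (adjusted p = 0.00076). Prp40 (NO15G01960), which links U1 to the branch site in yeast, had 279 and 262 CPM in C0, 231 and 221 CPM in N1 and 171 and 164 CPM in N2. It was lower in N1 than in C0 (−0.26 ± 0.06, adjusted p = 0.00099) and lower again in N2 than in N1 (−0.43 ± 0.06, adjusted p = 2.0e-05). U1 protein A (NO03G03750), which binds a U1 stem-loop, lay between 49.0 and 57.3 CPM in all libraries with no call.

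The U2 snRNP and branch-site group had more genes called lower than higher on both days. Of 24 genes 13 were called lower (background 37.1%) and 4 higher (background 33.3%) in N1 against C0, with a median of −0.28. In N2 against C0, 14 were lower (background 34.9%) and 1 higher (background 35.0%), with a median of −0.46. All 3 pathway-annotated subunits of SF3a, the module that seats U2 at the branch site, were called lower on both days. Genes described as SF3a subunits outside that annotation did not share this. A probable subunit 1 (NO18G02230) was called on neither day (0.34, adjusted p = 0.22 and 0.26, adjusted p = 0.34). A subunit 3 (NO17G02680) was higher in N1 (1.47, adjusted p = 2.7e-10) and not called in N2, against C0. SF3A1 (NO15G01420) had 174 and 162 CPM in C0, 122 and 125 CPM in N1 and 104 and 107 CPM in N2 (log2 fold change −0.67 ± 0.06 in N2 against C0, adjusted p = 1.9e-07). SF3A2 and SF3A3 changed by −0.57 and −0.49 in N2 against C0. In N1 against C0 they changed by −0.29 and −0.34, calls that were lost without N1 replicate 1 for SF3A2 (−0.13, adjusted p = 0.14) and without C0 replicate 1 for SF3A3 (−0.16, adjusted p = 0.13).

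The SF3b module, which holds the branch-site adenosine, was mixed. SF3B1 (NO16G02470), its large scaffold, had 236 and 216 CPM in C0, 229 and 252 CPM in N1 and 252 and 246 CPM in N2, with overlapping N1 and C0 groups and no call (0.14 ± 0.06 in N2 against C0, adjusted p = 0.056). SF3B2 (NO09G00380), which binds SF3B4, was lower in both ND groups, with 118 CPM or less in each N1 library and 106 and 114 CPM in N2, against 176 and 164 CPM in C0 (−0.54 ± 0.07 and −0.62 ± 0.06). PHF5A, the small zinc-binding subunit, lay between 28.8 and 35.8 CPM with no call. Splicing factor 3B subunit 3 is annotated at 4 loci in 2 neighbouring pairs, of which NO07G00540 is described as a vacuolar amino acid transporter, and its most abundant locus (NO02G02410) had 421 and 443 CPM in C0, 282 and 260 CPM in N1 and 219 and 224 CPM in N2. That locus was lower by −0.96 ± 0.05 in N2 against C0 (adjusted p = 7.7e-10). Its neighbour NO02G02420 had 104 and 63.2 CPM in C0, replicates that lie far apart, and 106 and 120 CPM in N1. It was called higher in N1 (0.44 ± 0.16, adjusted p = 0.021), and without C0 replicate 2 the call was lost (0.12, adjusted p = 0.34), as it was without N1 replicate 2 (0.39, adjusted p = 0.081). The 2 loci have 1 transcript each, and their counts hold decimals that add up to whole numbers in every library. The authors' counting thus divided reads between these loci, and their values are not independent. In C0 the estimated counts were 2121.14 and 2314.24 at NO02G02410, where NO02G02420 had 522.86 and 329.76.

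Other genes of this group moved further. SPF30 (NO30G00490), a relative of the SMN protein needed for tri-snRNP joining in human cells, had 89.5 and 92.1 CPM in C0, 36.1 and 34.1 CPM in N1 and 40.2 and 40.6 CPM in N2. That was a log2 fold change of −1.37 ± 0.09 in N1 (adjusted p = 5.2e-09) and −1.17 ± 0.09 in N2 (adjusted p = 1.5e-08). The SF3b-associated DEAD-box helicase SF3B125 (NO12G00490, the entry of human DDX42) went the other way, with 30.8 and 24.1 CPM in C0, 46.6 and 38.6 CPM in N1 and 61.4 and 74.3 CPM in N2. The 3 groups did not overlap, and it was higher in N1 than in C0 (0.64 ± 0.15, adjusted p = 0.0019) and higher in N2 than in N1 (0.67 ± 0.13, adjusted p = 0.00049). SPF45 (NO21G01420), which takes part in the choice of 3′ splice sites, had 113 and 105 CPM in N1, against 67.3 and 72.9 CPM in C0 (0.64 ± 0.08, adjusted p = 5.5e-06). Its N2 level, 72.4 and 76.7 CPM, was lower than in N1 (−0.55 ± 0.08, adjusted p = 2.9e-05). Of the 2 genes for the large subunit of U2AF, the factor that reads the pyrimidine tract before the 3′ splice site, the more abundant (NO25G00880) was lower, at 251 and 235 CPM in N1 and 217 and 223 CPM in N2, against 331 and 307 CPM in C0. The other (NO09G00900) lay between 167 and 193 CPM with no call, and neither was the small subunit called.

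The U4/U6.U5 tri-snRNP brings in the parts that become the active site. Of its 20 genes 9 were called lower (background 37.1%) and 3 higher (background 33.3%) in N1 against C0. In N2 against C0, 12 were lower (background 34.9%) and 3 higher (background 35.0%). Prp8 (NO28G00070), the scaffold around the active site and one of the most highly counted spliceosome genes, had 681 and 698 CPM in C0, 671 and 646 CPM in N1 and 570 and 609 CPM in N2. Its change in N1 was not called (−0.07 ± 0.05, adjusted p = 0.22), while N2 was lower than C0 (−0.23 ± 0.05, adjusted p = 0.00054). It was also called lower in N2 than in N1 (−0.16 ± 0.05, adjusted p = 0.0087), but not with library totals alone (−0.07, adjusted p = 0.22), without N1 replicate 1 (−0.13, adjusted p = 0.069) or without N2 replicate 1 (−0.11, adjusted p = 0.050). Brr2 (NO15G02290), the helicase that unwinds U4 from U6, had 671 and 638 CPM in C0, 470 and 471 CPM in N1 and 413 and 412 CPM in N2. Here the groups were well apart, with −0.48 ± 0.04 in N1 (adjusted p = 2.2e-07) and −0.67 ± 0.04 in N2 (adjusted p = 5.5e-09) against C0. The annotation places 2 more Brr2 loci directly beside it by identifier (NO15G02300 and NO15G02310), at 19.6 to 30.0 CPM and 32.2 to 52.6 CPM. Their values were −0.37 and −0.30 in N1 and −0.43 and −0.43 in N2 against C0. Both N1 calls were lost without N1 replicate 2 (−0.32 and −0.28), among other libraries. Both N2 calls were lost without N2 replicate 2 (−0.29 and −0.31), among other libraries. Snu114 (NO05G03000), the GTPase that sits beside Prp8, had 294 and 319 CPM in N1 and 283 and 292 CPM in N2, against 362 and 370 CPM in C0 (−0.26 ± 0.05 and −0.35 ± 0.05).

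Of the U4/U6 proteins, Prp3 (NO14G00160) was lower in N2 than in C0 (79.6 and 82.2 against 127 and 137 CPM, −0.71 ± 0.07, adjusted p = 3.4e-07). Prp4 (NO14G00150), its partner on the same RNA, lies directly beside it by identifier and lay between 51.4 and 68.2 CPM with no call. Prp31 (NO05G00720), which clamps U4 RNA, had 78.5 and 76.7 CPM in N1 and 81.2 and 71.4 CPM in N2, against 110 and 112 CPM in C0, a log2 fold change of −0.51 ± 0.08 in N1 and −0.54 ± 0.08 in N2. The strongest rise of the group was that of Dib1 (NO13G02900), a small thioredoxin-fold protein of U5 that leaves on activation. It had 9.13 and 11.5 CPM in C0, 28.5 and 32.4 CPM in N1 and 27.5 and 22.2 CPM in N2, so that every ND library was above both C0 libraries. The log2 fold change was 1.56 ± 0.19 in N1 (adjusted p = 3.1e-06) and 1.26 ± 0.19 in N2 (adjusted p = 2.6e-05).

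The Prp19 complex and its partners, which join as the spliceosome becomes active, had 22 genes. Of these 6 were called higher (background 33.3%) and 9 lower (background 37.1%) in N1 against C0. In N2 against C0, 2 were higher (background 35.0%) and 10 lower (background 34.9%). Prp19 itself (NO08G00290), a ubiquitin ligase, had 204 and 214 CPM in C0, 240 and 267 CPM in N1 and 215 and 231 CPM in N2. It was higher in N1 than in C0 (0.28 ± 0.06, adjusted p = 0.0015) and was not called in N2 against C0 (0.09 ± 0.06, adjusted p = 0.21). The call of a lower level in N2 than in N1 (−0.18 ± 0.06, adjusted p = 0.022) was lost with library totals (−0.09, adjusted p = 0.23), without N1 replicate 2 (−0.15, adjusted p = 0.087) or without N2 replicate 1 (−0.13, adjusted p = 0.16). CDC5, the core Myb-type protein of the complex, is split over 3 neighbouring loci. The counts of NO01G01850 and NO01G01860 hold decimals that add up to whole numbers in every library, so reads were divided between them. NO01G01840 had 85.7 and 82.7 CPM in C0, 45.0 and 47.5 CPM in N1 and 59.7 and 62.7 CPM in N2. NO01G01860 had 104 and 105 CPM in C0, 59.7 and 56.7 CPM in N1 and 54.4 and 56.4 CPM in N2. All 3 loci were called lower in N1 against C0 (−0.86, −0.47 and −0.84 in the order of the identifiers), while in N2 against C0 they stood at −0.46, −0.00 and −0.92 and only the first and the last were called.

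The tetratricopeptide proteins SYF3 and SYF1, which span the active complex, have 2 genes each, and the more abundant of each was highest in N1. The other SYF3 gene (NO28G01260), described as CLF1, was not called in N1, at 117 and 122 CPM, against C0, at 115 and 114 CPM (0.07 ± 0.07, adjusted p = 0.38). The other SYF1 gene (NO06G02040) was called higher in N1 than in C0 (0.33 ± 0.13, adjusted p = 0.035). That call was lost with DESeq2 (0.36, adjusted p = 0.15) and with library totals (0.27, adjusted p = 0.077). It was also lost without any 1 of the C0 and N1 libraries (0.32 to 0.36). The abundant SYF3 gene (NO01G02710), which has no description, had 288 and 296 CPM in C0, 368 and 357 CPM in N1 and 213 and 211 CPM in N2. All 3 groups were apart, and all 3 comparisons were called, with 0.31 ± 0.05 in N1 against C0 (adjusted p = 4.8e-05), −0.46 ± 0.05 in N2 against C0 (adjusted p = 1.1e-06) and −0.78 ± 0.05 in N2 against N1 (adjusted p = 1.1e-08). SYF1 (NO05G05340) had 151 and 138 CPM in C0, 203 and 201 CPM in N1 and 128 and 131 CPM in N2 (0.48 ± 0.06 in N1 against C0, −0.64 ± 0.06 in N2 against N1). Aquarius (NO27G00670), a helicase-like protein that binds the intron, was lower throughout, at 175 and 178 CPM in N1 and 155 and 147 CPM in N2, against 300 and 303 CPM in C0. Its log2 fold change was −0.77 ± 0.05 in N1 against C0 (adjusted p = 9.6e-09), and N2 was called lower than N1 (−0.23 ± 0.06, adjusted p = 0.0035), but not with library totals alone (−0.13, adjusted p = 0.064). BUD31 (NO07G01600), SKIP (NO05G02500) and RBM22 (NO04G01580), which contact the RNA core, changed by −0.80, −0.52 and −0.47 in N2 against C0, all called. PLRG1 and ISY1 were called in none of the 3 comparisons.

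All 11 genes sorted into the RNA helicase role were called in N1 against C0 (background 70.4%), 5 higher (background 33.3%) and 6 lower (background 37.1%). Helicases sorted into other roles, among them Brr2, SF3B125 and EIF4A3, are not counted here. In N2 against C0, 3 were higher (background 35.0%) and 6 lower (background 34.9%). The split ran within both helicase families. Prp43 (NO02G00870), which takes the spent spliceosome apart, had 180 and 189 CPM in N1 and 165 and 183 CPM in N2, against 299 and 330 CPM in C0 (−0.77 ± 0.07 and −0.85 ± 0.07). Prp16 (NO08G01930), which drives the change between the cuts, was lower by a log2 fold change of −0.57 ± 0.06 in N1 and −0.48 ± 0.06 in N2 against C0. Prp2 (NO11G00990, the entry of human DHX16), which acts just before the first cut, was slightly higher in N1 (0.21 ± 0.06, adjusted p = 0.0068), a call lost without C0 replicate 2 (0.18, adjusted p = 0.056), and was not called in N2 against C0. Prp5, which proofreads the pairing of U2 with the branch site, is annotated at 2 neighbouring loci, both called higher in N1. Their counts hold decimals that add up to whole numbers in every library. Reads were thus divided between the loci, and the 2 calls are not independent. The larger of them (NO16G00550) had 481 and 475 CPM in C0, 711 and 676 CPM in N1 and 711 and 689 CPM in N2, the highest-counted spliceosome gene in N2, at 0.54 ± 0.04 in N1 and 0.55 ± 0.04 in N2 against C0. The other (NO16G00540) had 134 and 125 CPM in C0, 198 and 194 CPM in N1 and 137 and 153 CPM in N2. Prp28 (NO20G01700), which releases U1, was lower in N1 (43.6 and 47.3 against 64.9 and 59.3 CPM in C0, −0.45 ± 0.10) and back at 67.4 and 63.0 CPM in N2 (0.52 ± 0.09 against N1).

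The 4 second step factors, which position the exons for joining, included 3 calls of a lower level in N1 against C0 (background 37.1%). That of SLU7 (NO24G00340, −0.22 ± 0.09, adjusted p = 0.038) was lost with the DESeq2 test (−0.19, adjusted p = 0.26). It was also lost with DESeq2 size factors (−0.19, adjusted p = 0.072), among other alternatives. Prp17 (NO01G05170) had 110 and 108 CPM in C0, 61.2 and 63.3 CPM in N1 and 74.9 and 91.5 CPM in N2 (−0.80 ± 0.10 in N1 and −0.39 ± 0.09 in N2 against C0). Prp18 (NO08G00180) had 17.5 and 25.1 CPM in C0, 21.6 and 24.7 CPM in N1 and 11.8 and 10.1 CPM in N2. Its N1 and C0 groups overlapped, and N2 was lower than C0 (−0.96 ± 0.20, adjusted p = 0.00073) and than N1 (−1.08 ± 0.20, adjusted p = 0.00040). The other gene of the Prp17 entry (NO17G02120) is described in the tables as a coronin, an actin-binding WD-repeat protein. It had 64.7 and 66.2 CPM in C0, 35.9 and 35.2 CPM in N1 and 75.8 and 78.2 CPM in N2, lower in N1 than in C0 (−0.88 ± 0.09, adjusted p = 9.0e-07) and higher in N2 than in N1 (1.12 ± 0.09, adjusted p = 1.1e-07). The call in N2 against C0 (0.23 ± 0.08, adjusted p = 0.017) was lost without C0 replicate 1 (0.21, adjusted p = 0.089), C0 replicate 2 (0.25, adjusted p = 0.052) or N2 replicate 2 (0.21, adjusted p = 0.082).

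In the exon junction, TREX and cap-binding group, 3 of 11 genes were called higher (background 33.3%) and 3 lower (background 37.1%) in N1 against C0. In N2 against C0, 3 were higher (background 35.0%) and 2 lower (background 34.9%). The exon junction core divided. EIF4A3 (NO29G01070), the helicase that clamps the RNA, was lower in N1 (156 and 149 CPM) and N2 (149 and 150 CPM) than in C0 (212 and 197 CPM), with −0.42 ± 0.06 and −0.45 ± 0.06. Its partner Y14 (NO30G00660) had 34.3 and 33.5 CPM in N1 and 35.2 and 33.9 CPM in N2, against 27.4 and 27.0 CPM in C0 (0.32 ± 0.12 and 0.35 ± 0.12). Both Y14 calls were lost without C0 replicate 2 (0.30, adjusted p = 0.11 in N1, and 0.33, adjusted p = 0.075 in N2), among other libraries. The export adaptor ALY (NO20G02190) had 60.7 and 56.1 CPM in C0, 37.9 and 34.3 CPM in N1 and 32.8 and 39.6 CPM in N2, and both ND groups were lower than C0 by −0.69 (SE 0.12 in N1 and 0.11 in N2, adjusted p = 0.00011 and 7.0e-05). THOC2 (NO03G00330), the scaffold of the THO complex, was higher (0.28 ± 0.07 in N1 and 0.36 ± 0.06 in N2), while THOC1 and THOC3 were not called. The large cap-binding subunit CBP80 (NO02G02180) had 74.3 and 74.8 CPM in N1, against 108 and 97.8 CPM in C0 (−0.46 ± 0.09, adjusted p = 0.00035), and 90.4 and 105 CPM in N2 with no call against C0.

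The SR proteins, RNA-binding regulators with serine-arginine tails, had most of their higher levels in N1. Of 7 genes 4 were called higher (background 33.3%) and 2 lower (background 37.1%) in N1 against C0. In N2 against C0, none was higher (background 35.0%) and 4 were lower (background 34.9%). In N2 against N1, none was higher (background 29.4%) and 5 were lower (background 28.5%). A gene described as the SR factor SR45 (NO08G02750), outside the pathway annotation, did not share this course. It was called higher in N1 (0.21, adjusted p = 0.044) and in N2 (0.26, adjusted p = 0.012) against C0. Its N2 level was not called against N1 (0.05, adjusted p = 0.63). The 4 genes of the SFRS1/SFRS9 entry, relatives of human SRSF1, all had higher means in N1 than in C0 (log2 fold changes of 0.25 to 0.35, 3 of them called) and all were called lower in N2 than in N1 (−0.20 to −0.78). With library totals alone 2 and 3 of the 4 were called, and no sign changed in either comparison. NO24G02140 was no longer called in N1 against C0 (0.16, adjusted p = 0.099) or in N2 against N1 (−0.11, adjusted p = 0.26) when N1 replicate 1 was left out. NO02G01470 had 37.3 and 35.8 CPM in C0, 46.8 and 46.2 CPM in N1 and 26.7 and 27.4 CPM in N2. Its groups were apart, with 0.35 ± 0.11 in N1 against C0 (adjusted p = 0.010), −0.43 ± 0.11 in N2 against C0 (adjusted p = 0.0031) and −0.78 ± 0.11 in N2 against N1 (adjusted p = 2.7e-05). The first of these calls was lost without C0 replicate 2 (0.31, adjusted p = 0.064). NO27G01330, the entry of FUSIP1 and described as the SC35-like factor SCL33, had 156 and 162 CPM in N1, against 117 and 110 CPM in C0 (0.49 ± 0.06, adjusted p = 7.4e-06). In N2, at 114 and 112 CPM, it was lower than in N1 (−0.49 ± 0.06, adjusted p = 1.0e-05) and not called against C0. The SFRS2 gene (NO27G01180), the entry of human SC35, was lower instead, at 128 and 126 CPM in N1 and 134 and 124 CPM in N2, against 180 and 179 CPM in C0 (−0.50 ± 0.06 and −0.47 ± 0.06).

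**Figure D3:**
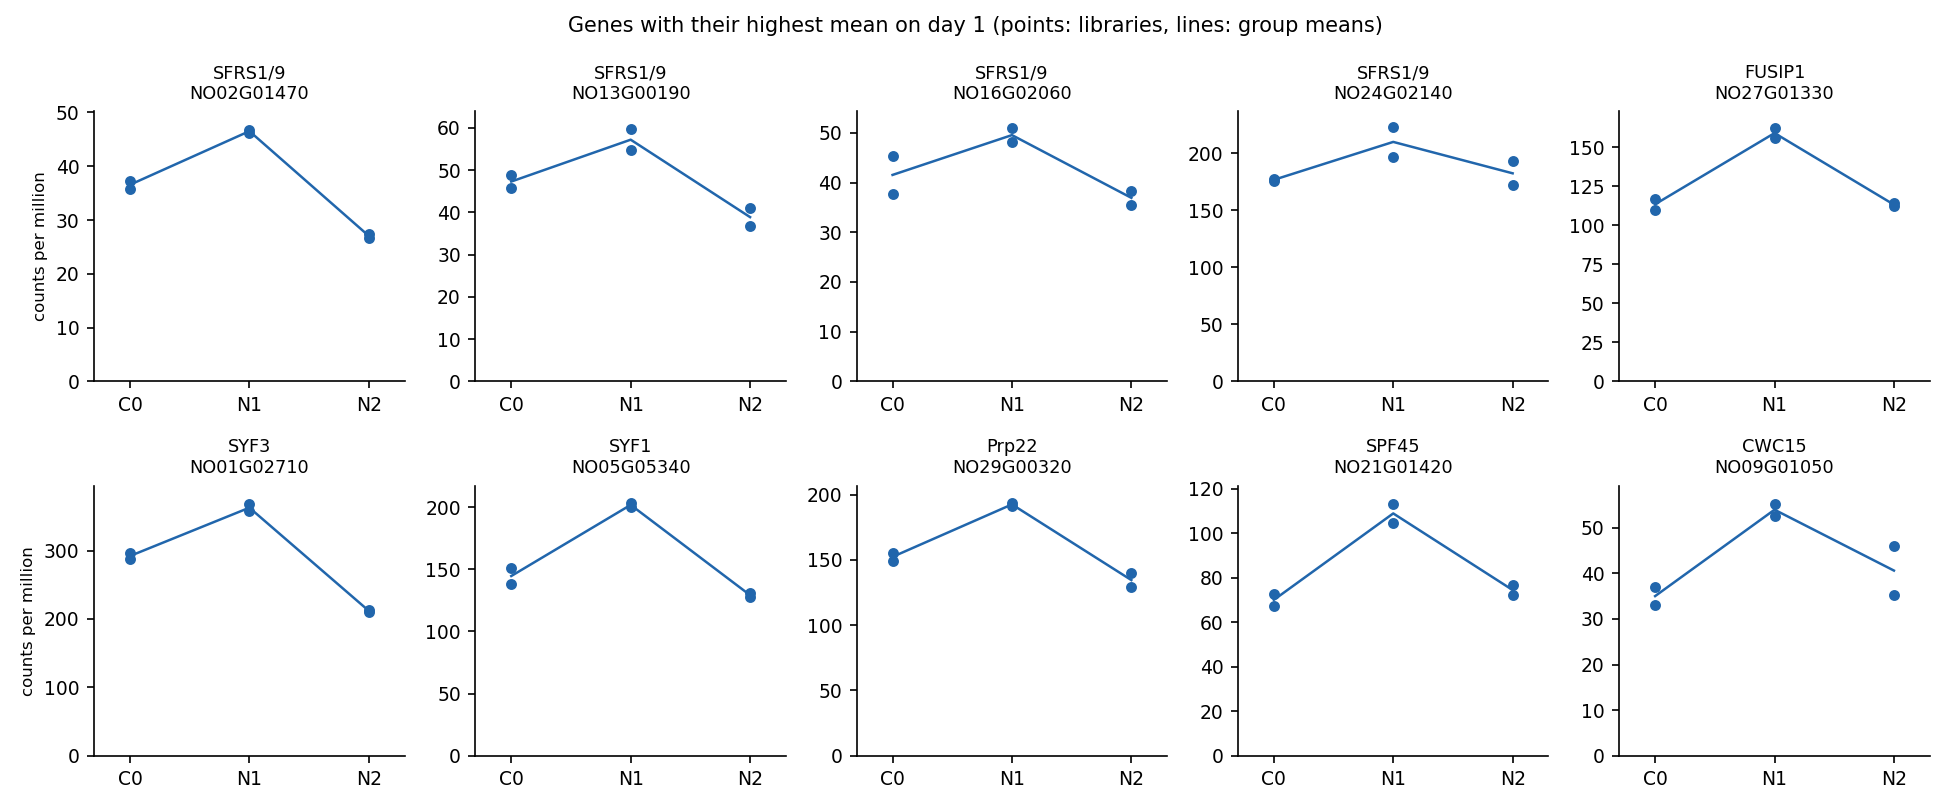
CPM (y axis, from 0) in C0, N1 and N2 of 10 spliceosome genes with their highest mean in N1, chosen after their values were seen (points are libraries, lines join group means). SYF3 NO01G02710 had 368 and 357 CPM in N1, above 288 and 296 in C0 and 213 and 211 in N2. The libraries of NO16G02060 and NO24G02140 lie closer together, and their N2 and C0 values overlap.

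The 4 genes of the hnRNP A1/A3 entry, RNA-binding proteins that package pre-mRNA, held the largest changes among the SR and hnRNP genes. NO08G00740, described as a mitochondrial glycine-rich RNA-binding protein, had 472 and 452 CPM in C0, 195 and 195 CPM in N1 and 169 and 159 CPM in N2. The log2 fold change was −1.24 ± 0.05 in N1 (adjusted p = 3.2e-11) and −1.49 ± 0.05 in N2 (adjusted p = 5.5e-12) against C0. NO14G00370, with a description of the same kind and the second highest mean TPM of the group (805 TPM), had 394 and 393 CPM in N1 and 437 and 458 CPM in N2, against 629 and 578 CPM in C0 (−0.62 ± 0.05 and −0.43 ± 0.05). Its rise in N2 over N1 (0.18 ± 0.05, adjusted p = 0.0063) was lost without N1 replicate 2 (0.14, adjusted p = 0.091) or N2 replicate 2 (0.14, adjusted p = 0.053). The description places both proteins in mitochondria, so whether they serve the spliceosome is a matter of the annotation. NO03G04810, described as a UBP1-associated protein, was among the 3 genes of lowest mean TPM (6.19 TPM). It had 11.3 and 10.3 CPM in C0, 12.5 and 12.1 CPM in N1 and 22.0 and 23.1 CPM in N2, and was higher in N2 than in C0 (1.06 ± 0.17, adjusted p = 8.2e-05) and than in N1 (0.87 ± 0.17, adjusted p = 0.00061). NO23G01070, which also carries the entry of the RNA-binding protein Musashi, had 102 and 86.5 CPM in C0, 117 and 106 CPM in N1 and 135 and 128 CPM in N2. It was higher in N2 than in C0 (0.48 ± 0.08, adjusted p = 0.00010). The call in N1 against C0 (0.25 ± 0.09, adjusted p = 0.019) did not hold when C0 replicate 2 was left out (0.13, adjusted p = 0.24), nor when N1 replicate 1 was (0.17, adjusted p = 0.16). The call in N2 against N1 (0.23 ± 0.08, adjusted p = 0.021) did not hold when N1 replicate 2 was left out (0.12, adjusted p = 0.31), nor when N2 replicate 1 was (0.20, adjusted p = 0.12).

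Genes that share an orthology entry differed from each other in some entries. In N1 against C0, 9 of the 21 shared entries had copies whose log2 fold changes lay more than 1 apart, and 5 had copies called in opposite directions. In N2 against C0 these numbers were 7 and 6. Many of the opposite calls were weak. In N1 those of the SmD3, hnRNP A1/A3, splicing factor 3B subunit 3 and CTNNBL1 entries each needed a call that was lost in at least 1 alternative. In N2 the same held for the SmD3, PPIL1, Prp17 and Prp6 entries. The SmB and Prp40 entries, among the 21, had 1 tested copy each and could not differ. Over all genes tested 33.3% were called higher and 37.1% lower in N1, and 35.0% and 34.9% in N2, against C0. Unrelated genes can thus be called in opposite directions too, and whether copies differ more often than those was not tested. Among the 9 genes called with at least a 2-fold change in N1, 7 shared their entry with another gene, while 50 of the 123 tested genes did. Grouping the genes by shared entry was chosen after their values were seen and carries no test. In the Prp6 entry, a bridge between U5 and U4/U6, NO05G02900 is described as Prp6 and had 242 and 240 CPM in C0, 234 and 250 CPM in N1 and 257 and 270 CPM in N2. The other gene of that entry, NO12G01470, is described only as a tetratricopeptide protein, and it had 112 and 118 CPM in C0, 24.0 and 17.7 CPM in N1 and 32.1 and 30.7 CPM in N2. This was the largest fall of all spliceosome genes in N1 and the second largest in N2, −2.46 ± 0.12 in N1 (adjusted p = 9.8e-11) and −1.87 ± 0.10 in N2 (adjusted p = 6.0e-10) against C0. The partial return in N2 against N1 (0.58 ± 0.14, adjusted p = 0.0023) was lost without N1 replicate 2 (0.34, adjusted p = 0.063).

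Entries of partner proteins also divided. In the entry of CTNNBL1, a CDC5-binding protein, NO03G00020 had 65.8 and 70.3 CPM in N1, against 57.0 and 59.0 CPM in C0, while NO06G02860 had 21.6 and 24.5 CPM in N1 and 41.1 and 39.3 CPM in N2, against 97.6 and 96.9 CPM in C0. The second is described as a mitochondrial hydroxylase of ubiquinone synthesis, and its log2 fold change was −2.08 ± 0.10 in N1 (adjusted p = 1.5e-10) and −1.27 ± 0.09 in N2 (adjusted p = 8.0e-09) against C0. The small rise of NO03G00020 in N1 (0.23 ± 0.09, adjusted p = 0.042) was lost with DESeq2 (0.26, adjusted p = 0.13) and with library totals (0.18, adjusted p = 0.11). It was also lost without any 1 of the C0 and N1 libraries (0.20 to 0.28). In the entry of the U2 protein A′, NO06G01550 was lower by −0.60 on both days. NO13G01140, which has no description, had 17.1 and 17.2 CPM in C0, 6.34 and 4.26 CPM in N1 and 9.60 and 9.32 CPM in N2, with −1.68 ± 0.24 in N1 against C0 (adjusted p = 2.2e-05). Its rise in N2 over N1 (0.83 ± 0.26, adjusted p = 0.013) was lost without N1 replicate 2 (0.53, adjusted p = 0.14). In the entry of the cyclophilin PPIL1, a partner of SKIP, NO06G02280 had 7.94 and 11.5 CPM in C0, 1.59 and 2.56 CPM in N1 and 5.61 and 5.20 CPM in N2. It was lower in N1 than in C0 (−2.23 ± 0.37, adjusted p = 9.2e-05), and higher in N2 than in N1 (1.38 ± 0.40, adjusted p = 0.0081), a call lost without N1 replicate 1 (1.07, adjusted p = 0.079). The more abundant PPIL1 gene (NO04G00270) had 42.2 and 41.7 CPM in N2, against 27.8 and 33.5 CPM in C0 (0.45 ± 0.13, adjusted p = 0.0054), a call lost without C0 replicate 1 (0.32, adjusted p = 0.080).

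**Figure D4:**
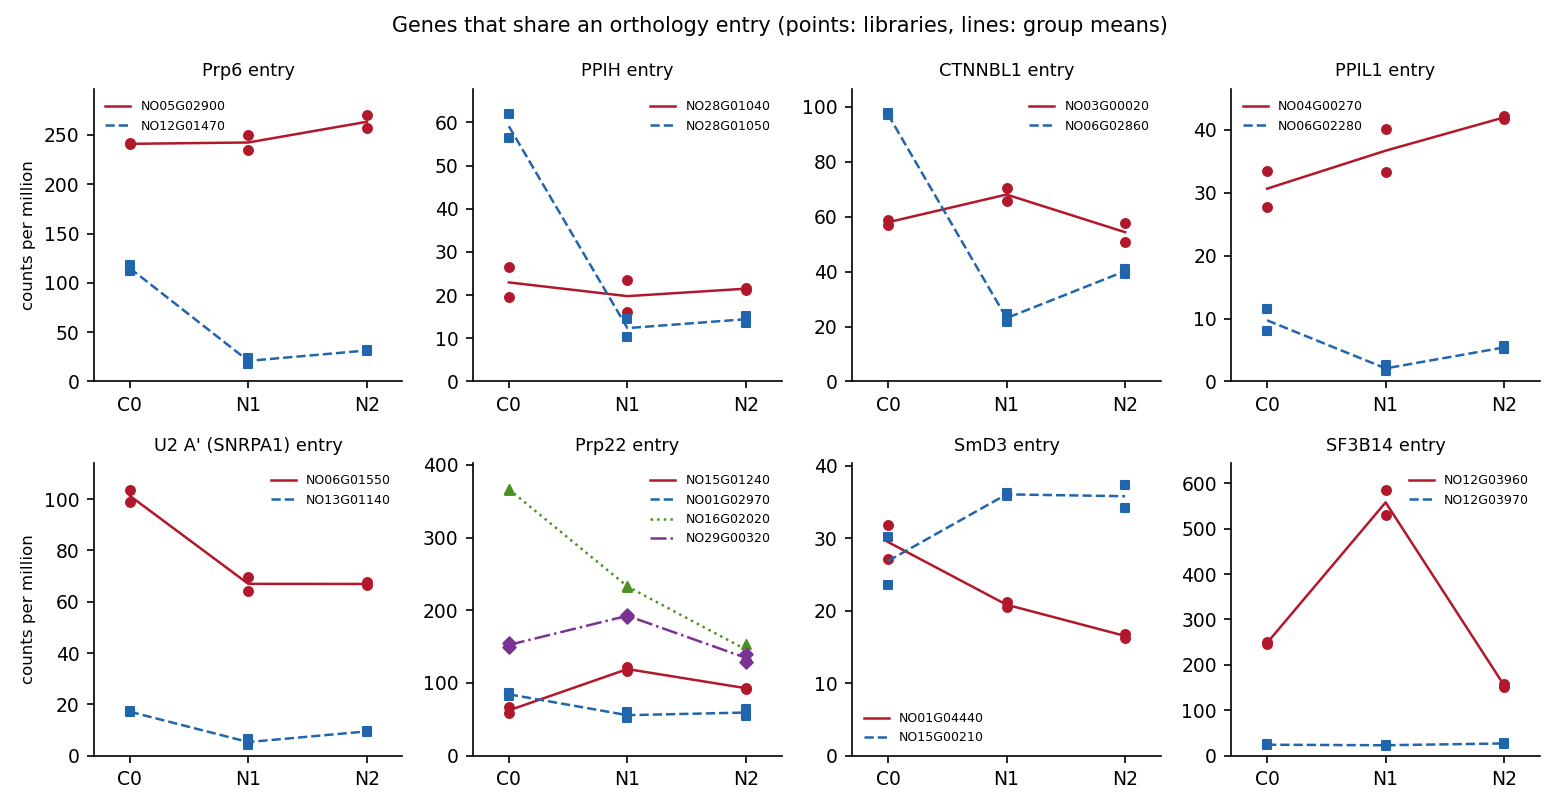
CPM (y axis, from 0, scale differs by panel) in C0, N1 and N2 of genes that share an orthology entry, for 8 entries chosen after their values were seen (points are libraries, lines join group means). In the Prp6 panel NO05G02900 stayed between 234 and 270 CPM, while NO12G01470 had 17.7 to 32.1 CPM in N1 and N2, against 112 and 118 CPM in C0.

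Prp22, the helicase that releases the finished mRNA, had 4 genes with different courses. NO15G01240 had 58.1 and 66.4 CPM in C0, 122 and 117 CPM in N1 and 91.9 and 93.7 CPM in N2 (0.93 ± 0.08 in N1, adjusted p = 8.5e-08, and 0.57 ± 0.08 in N2, adjusted p = 1.7e-05, against C0). NO16G02020 had 366 and 367 CPM in C0, 232 and 233 CPM in N1 and 154 and 138 CPM in N2 (−0.65 ± 0.06 in N1, adjusted p = 1.1e-07, and −1.33 ± 0.06 in N2, adjusted p = 5.9e-11). NO29G00320 was higher in N1, at 191 and 194 CPM, than in C0, at 149 and 156 CPM, and had 129 and 140 CPM in N2. Thus the most abundant copy in C0 lost ground while another gained, and their summed level was not tested. NO01G02970, the fourth gene of the entry, is described as a nucleolar protein and was lower on both days (−0.60 ± 0.10 and −0.51 ± 0.09). The SmD3 entry showed a smaller divide, with NO01G04440 at −0.84 ± 0.15 and NO15G00210 at 0.42 ± 0.13 in N2 against C0. The second of these calls was lost without C0 replicate 2 (0.24, adjusted p = 0.17) or N2 replicate 1 (0.35, adjusted p = 0.081).

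Several entries with several genes are neighbours in the genome. By identifier, 10 pairs of spliceosome genes stand directly next to each other, and 9 of these pairs share an entry. The pair of the cyclophilin PPIH, which binds Prp3 and Prp4 on U4/U6, is one. NO28G01050 had 61.9 and 56.3 CPM in C0, 14.5 and 10.2 CPM in N1 and 15.2 and 13.6 CPM in N2, a log2 fold change of −2.25 ± 0.16 in N1 (adjusted p = 8.9e-09) and −2.03 ± 0.15 in N2 (adjusted p = 1.3e-08). Its neighbour NO28G01040 lay between 16.1 and 26.4 CPM in all libraries, with overlapping groups and no call. Both hold counts with decimals, so that some reads were divided, and without strand information reads of overlapping neighbours cannot be told apart. Another pair is that of SF3B14, the subunit that touches the branch-site adenosine. NO12G03970, described as that subunit, lay between 21.6 and 27.2 CPM with no call. NO12G03960 carries the SF3B14 entry together with that of fabG, an enzyme of fatty acid synthesis, and is described as 3-oxoacyl-[acyl-carrier-protein] reductase. It had 251 and 245 CPM in C0, 531 and 585 CPM in N1 and 159 and 151 CPM in N2, at 1.17 ± 0.06 in N1 against C0 (adjusted p = 1.2e-10), −0.68 ± 0.06 in N2 against C0 (adjusted p = 1.1e-07) and −1.85 ± 0.06 in N2 against N1 (adjusted p = 7.9e-12). It was the largest rise of the group in N1 after that of Dib1 and the largest fall in N2 against N1, and its description is that of the enzyme.

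The deposited length of a gene bears on its own transcripts. For all 7050 genes with 1 transcript it was the same in every library, and it differed between libraries for all but 64 of the 3519 genes with several. It was therefore read as an average over transcripts weighted by abundance. Of the 50 spliceosome genes with several transcripts, all with at least 10 counts in every library, 4 differed by at least 10% in N1 against C0 with no overlap of the libraries, 5 in N2 against C0 and 3 in N2 against N1. The same rule took 4.80%, 5.15% and 3.86% of the 3416 genes of the series with several transcripts and such counts. This rule was chosen after the values were seen, has no test, and rests on the authors' estimate of transcript shares. For the SR gene NO27G01330 (FUSIP1 entry, 2 transcripts) the weighted length was 2039 and 1956 bases in C0, 1443 and 1465 bases in N1 and 1559 and 1567 bases in N2. It was 27.2% shorter in N1 and 21.7% shorter in N2, and no ND library came near the C0 libraries. Its level, in contrast, was above C0 in N1 only. For the PPIH gene NO28G01040 the length was 2024 and 1836 bases in C0, 1187 and 1406 bases in N1 and 1214 and 1222 bases in N2, while its level was not called, and its neighbour's level was lower as given above. SKIP (NO05G02500) was shorter in N1 only, at 2562 and 2457 bases, against 2928 and 2878 bases in C0. Prp18 (NO08G00180) was longer, at 1726 and 1753 bases in N1 and 1693 and 1678 bases in N2, against 1477 and 1562 bases in C0. The Prp5 gene NO16G00540, whose reads were divided with its neighbour, was shorter in N2 (1576 and 1717 bases) than in C0 (1885 and 1829 bases). THOC2 was longer in N2 (5872 and 5170 bases) than in C0 (4544 and 4895 bases).

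**Figure D5:**
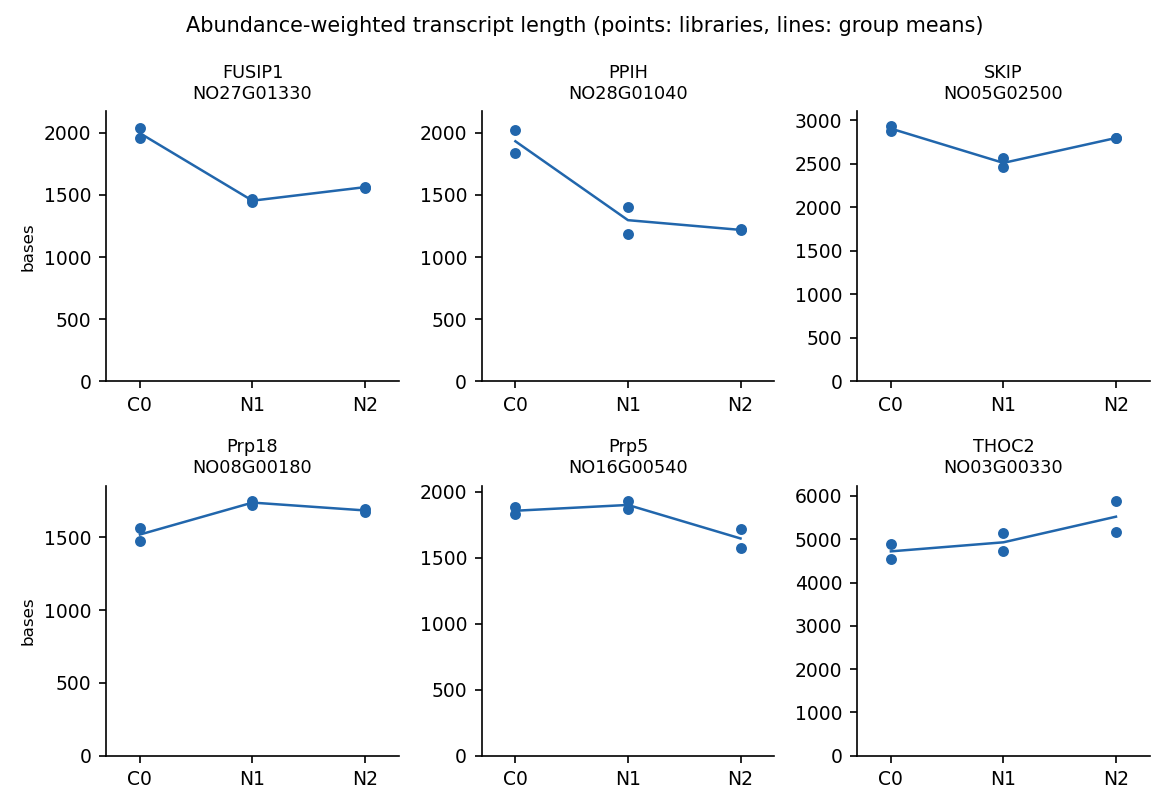
Abundance-weighted transcript length in bases (y axis, from 0) in C0, N1 and N2 for the 6 spliceosome genes in which any comparison met the rule of at least 10% (points are libraries, lines join group means). FUSIP1 NO27G01330 had 2039 and 1956 bases in C0 and no more than 1567 bases in N1 and N2.

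Genes around the spliceosome that KEGG does not list there were counted from lists made by searches in the descriptions. Over all genes tested 33.3% were called higher and 37.1% lower in N1 against C0, and 35.0% higher and 34.9% lower in N2 against C0. Of 12 genes described as splicing factors or regulators, 5 were called higher and 4 lower in N1 against C0, and 1 higher and 5 lower in N2 against C0, 2 of the 12 being tRNA splicing genes. A gene described as a second splicing factor 3A subunit 3 (NO17G02680), outside the pathway annotation, had 134 and 138 CPM in N1, against 49.2 and 49.2 CPM in C0 (1.47, adjusted p = 2.7e-10), and 53.2 and 51.2 CPM in N2. CWC22 (NO28G01730), which loads EIF4A3 onto the RNA, had 41.7 and 38.7 CPM in N2, against 61.1 and 62.4 CPM in C0 (−0.62, adjusted p = 3.0e-05). Of 4 kinases that phosphorylate SR proteins or splicing factors, none was called in N1 against C0 and 3 were called lower in N2 against C0 (−0.30 to −0.33). Of 10 cleavage and polyadenylation genes 7 were called lower and 1 higher in N1, and 5 lower and 1 higher in N2, against C0. Of 9 RNA polymerase II subunits 3 were called in each direction in N1 against C0. NO17G02680 and CWC22 were picked after their values were seen. So were NO18G02230, given above with SF3a, and NO08G02750, given above with the SR proteins.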

How the data were processed

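Poly-A RNA of Nannochloropsis oceanica IMET1 was sequenced by the authors as paired-end libraries without strand information, and 2 libraries per group (C0, N1, N2) were analysed here. N2 replicate 2 lacks a treatment label and was grouped by its title. The study calls its replicates biological, and no source used here says whether they were separate cultures, so p-values measure the spread between these libraries. Replicates differed by a chi-square per spliceosome gene of 2.06 to 2.24 in the 3 groups (1 for counting error alone).

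Per the study's methods, the tools were Trim Galore for trimming, STAR for alignment (NanDeSyn genome of IMET1), Picard, featureCounts, StringTie and edgeR, with no versions given. The deposited tables hold expected counts, estimated by the authors with decimals (79.2% to 80.8% of those of spliceosome genes were whole to 0.005), and TPM, scaled by the authors for length and library. Their length and effective length columns are in bases. Tables of the authors' own comparisons (fold changes, p-values and false discovery rates) were not used.

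Expected counts were rounded, scaled by TMM and tested in one fit of all 6 libraries with the two-sided quasi-likelihood test of edgeR 4.0.16 (R 4.3.3), for genes reaching 1 CPM in 2 or more libraries (9736 tested, 833 not). The SE was approximated as the size of the log2 fold change over the root of the F statistic. The script was tested on simulated data. Alternatives were DESeq2 1.42.0 as test and as size factors, library totals, no filter, unrounded counts, a fit on 2 groups, a replicate block and leaving out each library.

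Genes were sorted into roles by the gene names of their orthology entries and their descriptions, 13 of them by hand. Where a gene has more than 1 entry, its spliceosome entry was used. Genes named by rule were the 4 largest rises and falls per comparison at 10 CPM or more, the largest change per role and day, Prp8, Brr2, Snu114, SF3B1 and Prp19, genes called in opposite directions in N1 against C0 and N2 against N1 by at least 0.5, the 3 highest and lowest mean TPM, and genes at 0 in a group. All other genes were named after their values were seen. The spliceosome genes and the lists were chosen with earlier results of these data known. No sequences or coordinates are given, since no genome was used here.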

Additional observations from a re-analysis of the deposited data

Results flagged for a closer look

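The following 7 spliceosome genes were called in opposite directions against C0 on the 2 days of ND, and the difference between the days was itself called in N2 against N1. The share of all genes tested that meets the same conditions was not counted. Whether such a course is more frequent among spliceosome genes than among other genes was therefore not tested. For each of the 7 genes the log2 fold changes in N1 against C0 and in N2 against C0 come first. That in N2 against N1 follows, with its SE and adjusted p from edgeR's quasi-likelihood test.

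SYF3 (NO01G02710) stood at 0.31 and −0.46, with a difference of −0.78 ± 0.05 (adjusted p = 1.1e-08). SYF1 (NO05G05340) stood at 0.48 and −0.16, with −0.64 ± 0.06 (adjusted p = 4.4e-07). The Prp22 copy NO29G00320 stood at 0.34 and −0.18, with −0.52 ± 0.06 (adjusted p = 3.7e-06). Of the SFRS1/SFRS9 genes, NO02G01470 stood at 0.35 and −0.43, with −0.78 ± 0.11 (adjusted p = 2.7e-05), and NO13G00190 stood at 0.27 and −0.28, with −0.55 ± 0.10 (adjusted p = 0.00034). The SF3B14 and fabG gene NO12G03960 stood at 1.17 and −0.68, with −1.85 ± 0.06 (adjusted p = 7.9e-12). The gene described as a coronin (NO17G02120) was alone in the other direction, at −0.88 and 0.23, with 1.12 ± 0.09 (adjusted p = 1.1e-07).

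The small change in N2 against C0 was not called with DESeq2 for SYF1 (−0.17, adjusted p = 0.13), NO29G00320 (−0.18, adjusted p = 0.091), NO13G00190 (−0.29, adjusted p = 0.15) and the coronin gene (0.23, adjusted p = 0.17). For NO13G00190 and NO02G01470 DESeq2 did not call N1 against C0 either (0.31, adjusted p = 0.11, and 0.38, adjusted p = 0.074). The N2 call against C0 was also lost with library totals for SYF1 (−0.12, adjusted p = 0.085), and so were both calls of NO13G00190 against C0 (0.22, adjusted p = 0.075 in N1, and −0.24, adjusted p = 0.055 in N2). Leaving out 1 library lost it for SYF1 (−0.10, adjusted p = 0.24 without C0 replicate 1), NO29G00320 (−0.12, adjusted p = 0.17 without N2 replicate 1), NO13G00190 (−0.24, adjusted p = 0.14 without C0 replicate 1) and the coronin gene (0.21, adjusted p = 0.089 without C0 replicate 1), among other libraries. SYF3 and NO12G03960 kept all 3 calls under every alternative run.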

How the results depend on the processing

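Of 211 calls of spliceosome genes over the 3 comparisons, 145 kept their direction and their call in all 13 alternatives and 66 lost it in at least 1. No called gene changed sign. DESeq2 lost 41 of the calls, library totals 23, the 2-group fit 5, DESeq2 size factors 4 and the replicate block 4. The replicate numbers did not pair the samples (correlations of deviations −0.0232, 0.0117 and −0.0435), and with the block 29 genes were higher and 50 lower in N1 against C0, 17 and 58 in N2 against C0, and 15 and 38 in N2 against N1. Leaving out 1 library at a time gave 19 to 29 higher and 45 to 52 lower genes in N1 against C0 (median −0.19 to −0.13), 10 to 19 and 51 to 60 in N2 against C0 (median −0.25 to −0.17), and 11 to 15 and 29 to 38 in N2 against N1 (median −0.11 to −0.06). The 19 came without C0 replicate 2, and so did 10 higher genes in N2 against C0.

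DESeq2 called 10 genes higher in N2 against C0, and its median in N2 against N1 was −0.11, or −0.12 with its size factors. With library totals the medians were −0.24 in N1 against C0, −0.13 in N2 against C0 and 0.016, of the other sign, in N2 against N1, where 24 genes were higher and 25 lower. The medians of the roles in N2 against N1 changed sign with that scaling for U2, Prp19 and helicase genes, and all 3 were within 0.13 of 0 under every scaling. The 2-group fit gave a median of −0.14 in N1 against C0. The SF3B3 gene NO02G02420, not called in N2 against C0, was called higher there without C0 replicate 1 (0.39, adjusted p = 0.010) and lower without C0 replicate 2 (−0.32, adjusted p = 0.017). The cause of these shifts was not tested. With 2 libraries a group, small changes rest on few values, and genes under 10 CPM (several Sm and LSm genes) are limited by counting error.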
